A study of Mus musculus with 6 samples.

Results

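A set of 36 mouse genes of glycolysis and of the cellular response to low oxygen were followed in cancer-associated fibroblasts (CAFs) that differed in the surface protein Ly6C. They were chosen by name: 17 glycolytic enzyme genes, 6 genes of enzymes that regulate the pathway, 3 genes of oxygen sensing and 10 further targets of the hypoxia-inducible factors (HIFs). Of the 36 genes, 34 were among the 12235 genes of the deposited table. Pfkp and Aldoc, which encode the platelet-type phosphofructokinase and brain-type aldolase, were not among them and were not analysed here. The fibroblasts came from breast tumours of BALB/c females that were 8 weeks old when 4T1 cells, a mouse mammary carcinoma line, were placed in the mammary fat pad at 100000 cells per animal. The labels call these cells 4T1-GFP in one field and 4T1-luc in another. Both groups were untreated apart from the tumour, carried no engineered allele that the labels name, and were sorted as PDPN-positive cells that lacked Ter119, CD45 and EpCAM. They differed in the last gate, Ly6C+ against Ly6C-, with 3 libraries each, and the labels do not say whether a library came from 1 tumour or from several.

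Glycolysis splits glucose into pyruvate in the cytosol, and lactate dehydrogenase can turn that pyruvate into lactate for export. When oxygen is short, prolyl hydroxylases no longer mark the HIF alpha subunits for destruction, and the HIF complex then switches on genes of glycolysis, acid handling, mitochondrial removal and blood vessel growth through sites that carry a core of ACGTG or GCGTG. Tumour fibroblasts are known both to sense hypoxia and to make lactate.

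The libraries were 3′ end libraries of 2150531 to 2818269 reads (Ly6C+) and 1176909 to 1721480 reads (Ly6C-), so the Ly6C- values rest on fewer reads. Values are normalised counts, the reads of a gene divided by 1 size factor per library. Differences are log2 fold changes, Ly6C+ minus Ly6C-, estimated with limma after a log2(value + 1) transform, in which changes of low-count genes come out too small. Folds are ratios of group means. A gene passed the test at a Benjamini-Hochberg adjusted p under 0.05 over the 9646 genes with a mean value of at least 5. Fibroblast genes were detected in every library, but the groups differed in them. Of 10 listed, Dcn, Lum, Pdgfra, Pdpn and Col3a1 were called higher in Ly6C+ CAFs (3.99-fold, 5.24-fold, 2.38-fold, 2.19-fold and 1.95-fold), Pdgfrb was called lower, and Col1a1, Col1a2, Fap and Thy1 did not pass. Ly6C+ replicate 1 stood apart in granulocyte genes, whose 7 listed genes in the table summed to 861 there and to at most 14.3 in any other library. Results are therefore given with and without it where it changes a call. RNA was pooled over cells in each library, so a lower share of cells that express a gene and less RNA per cell cannot be told apart.

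Of the glycolytic genes that passed the test, 6 of 7 were lower in Ly6C+ than in Ly6C- CAFs, by 1.46-fold to 1.91-fold. Of 23 listed genes of enzymes and regulators, 21 were in the table and 18 were tested. Hk1, Gpi1, Pfkl, Aldoa, Pkm and Pfkfb4 were lower, Hk2 was higher, and 11 did not pass. Over all tested genes, 7.66% were called lower and 9.41% higher in Ly6C+ cells, 17.1% together. These are 739 lower and 908 higher genes, which became 1211 and 725 when each library was scaled to its own total. The median log2 fold change of the 18 was −0.59, against 0.00 for all 9646 genes, and 16 of the 18 had a negative value, against 50.1% of all genes. Of the 18, 10 had all 3 Ly6C+ libraries below all 3 Ly6C- libraries and 1 had them above, where 16.1% and 17.1% of all genes did. The sum of normalised counts over the 15 enzyme genes in the table was 5955, 5524 and 5596 in Ly6C+ libraries and 9469.9, 8581 and 8118 in the Ly6C- libraries. That sum rests on few genes. Group means were largest for Pkm (1494 in Ly6C+ and 2854 in Ly6C-), Aldoa (1189 and 1899) and Ldha (1203 and 1431).

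**Figure D1:**
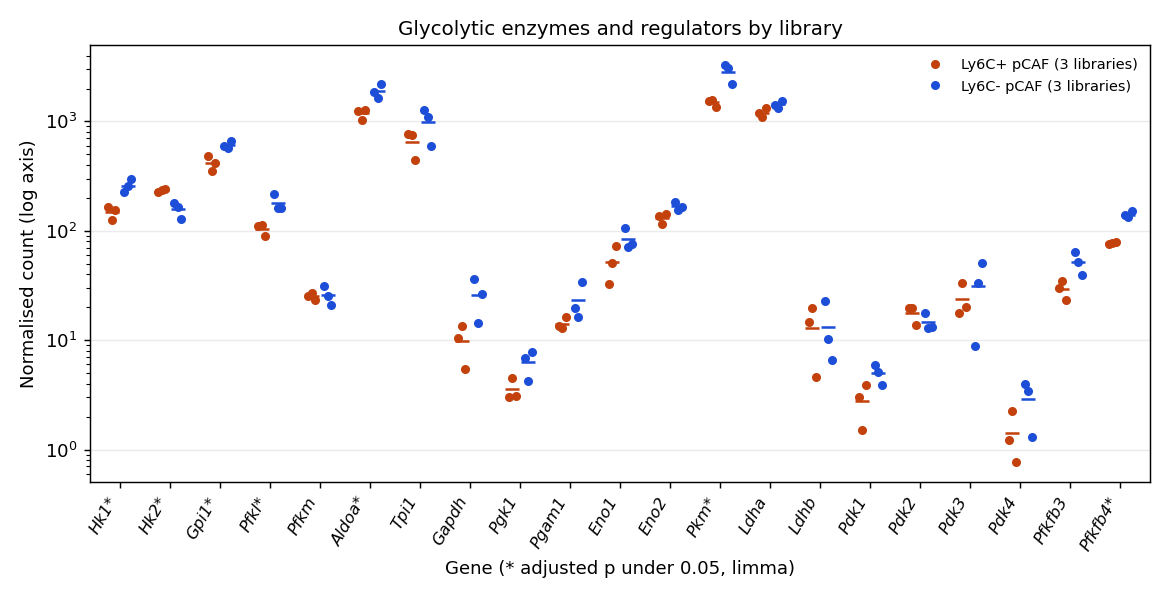
Normalised counts (log axis) of the 21 genes of glycolysis and its regulators that were in the table, in pathway order with regulators last. Each point is 1 library, short bars are group means, and a star marks an adjusted p under 0.05 in limma. Hk2 is the starred gene with all Ly6C+ points above the Ly6C- points, and Pkm shows a wide gap in the other direction.

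At the first step, the phosphorylation of glucose, the 2 hexokinase genes differed in opposite directions. Hk1, the hexokinase of most tissues, had 165, 126 and 155 normalised counts in Ly6C+ and 227, 254 and 295 in the Ly6C- libraries. It was 1.75-fold higher in Ly6C- CAFs (log2 fold change −0.80, SE 0.18; limma adjusted p = 0.0103). Hk2, the inducible hexokinase and a known HIF target, went the other way with 228, 238 and 239.5 in the Ly6C+ and 180.1, 164 and 127 in the Ly6C- libraries. The groups of both genes did not overlap. Hk2 was 1.49-fold higher in Ly6C+ CAFs (log2 fold change 0.59, SE 0.18; limma adjusted p = 0.0432). Within a library, Hk2 made up 58.0%, 65.4% and 60.8% of the summed values of both hexokinase genes in Ly6C+ and 44.2%, 39.2% and 30.1% in Ly6C- cells. That share is free of the scaling between libraries, and it is given as a description.

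At the next steps, Gpi1, Pfkl and Aldoa were lower in Ly6C+ CAFs, as Hk1 was. Gpi1, which turns glucose 6-phosphate into fructose 6-phosphate, stood at 478, 354 and 418 in the Ly6C+ and 594, 574 and 659.5 in the Ly6C- libraries, 1.46-fold higher in the latter (log2 fold change −0.55, SE 0.17; limma adjusted p = 0.0422). Phosphofructokinase commits sugar to glycolysis, and its liver-type subunit gene Pfkl was at 110.4, 114 and 88.9 against 216, 163 and 161, without overlap. Pfkl was 1.73-fold higher in Ly6C- CAFs (log2 fold change −0.78, SE 0.19; limma adjusted p = 0.0163). The muscle-type subunit gene Pfkm showed no such gap, with 23.2 to 27.1 in the Ly6C+ and 21.0 to 31.5 in the Ly6C- libraries. Its log2 fold change was −0.02, with a 95% interval of −0.58 to 0.54 that still allows a change of the size seen in Gpi1. The share of Pfkm in the sum of both subunit genes was 18.8% to 20.7% in Ly6C+ and 11.5% to 13.5% in Ly6C- libraries, a difference of 7 percentage points that was 3.78 when all libraries were thinned to the depth of the shallowest. Aldoa, the aldolase that splits the sugar, stood at 1257, 1029 and 1283 in the Ly6C+ and 1877, 1625 and 2196 in the Ly6C- libraries. It was 1.60-fold higher in Ly6C- CAFs (log2 fold change −0.67, SE 0.17; limma adjusted p = 0.0212).

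In the middle of the pathway the direction was the same but no gene passed. Tpi1, which interconverts the triose phosphates, was at 762, 747 and 447 against 1279, 1092 and 591, and the third library of each group was the lowest. Its log2 fold change was −0.56 (SE 0.29; limma adjusted p = 0.239), and without Ly6C- replicate 3 it was −0.90 and passed (adjusted p = 0.0242), whereas without Ly6C+ replicate 3 it was −0.31 (adjusted p = 0.556). Gapdh, which oxidises glyceraldehyde 3-phosphate and is widely used as a reference gene, was counted at only 10.4, 13.5 and 5.41 in the Ly6C+ and 36.4, 14.5 and 26.2 in the Ly6C- libraries, on 42 and 74 reads. The last 500 bases of its annotated transcripts shared 90.5% of their 50-base windows with transcripts of 141 other annotated genes, 135 of them pseudogenes. How reads with several matches were counted is not given in the sources used here, so the Gapdh values are uncertain. The Gapdh difference lay near the threshold (log2 fold change −1.30, SE 0.42; limma adjusted p = 0.0555) and passed in 10 of 19 alternatives, over a range of adjusted p of 0.0265 to 0.165. Leaving out Ly6C- replicate 2 gave an adjusted p of 0.0339.

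Pgk1, the first ATP-forming enzyme, had 15 and 18 reads per group and was below the level for testing (3.05, 4.51 and 3.09 against 6.89, 4.25 and 7.87). Pgam1, the phosphoglycerate mutase, was at 13.4, 12.8 and 16.2 against 19.7, 16.2 and 34.1 and did not pass the test (log2 fold change −0.62; limma adjusted p = 0.247). The enolase genes Eno1 and Eno2, which are the ubiquitous and the neuronal form, had log2 fold changes of −0.73 and −0.36 and did not pass the test (limma adjusted p = 0.119 and 0.206). Eno1 stood at 32.3, 51.1 and 72.6 against 105, 70.6 and 76.0, and with Ly6C+ replicate 3 left out it passed, at a log2 fold change of −1.01 (limma adjusted p = 0.0405), whereas without Ly6C+ replicate 1 it was −0.43 (adjusted p = 0.376). Eno1 shared 75.5% of the 50-base windows of its 3′ end with other annotated genes, so its values are uncertain too. Eno2 stood at 137, 114 and 142 against 183, 154 and 167 and shared none.

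The exit of the pathway held the glycolytic gene with the smallest p among the enzymes. Pkm, the pyruvate kinase gene, had 1531, 1585 and 1368 normalised counts in Ly6C+ and 3270, 3079 and 2213 in the Ly6C- libraries, on 6388 and 8629 reads. It lies on chromosome 9, 59656368 to 59679375, plus strand (mm10, protein coding), and its M1 and M2 splice forms cannot be told apart in gene counts. Pkm was 1.91-fold higher in Ly6C- CAFs (log2 fold change −0.92, SE 0.18; limma adjusted p = 0.00547). Ldha, which makes lactate from pyruvate, showed a smaller gap, at 1189, 1090 and 1330 against 1423, 1334 and 1537. Its groups did not overlap, yet the gene did not pass (log2 fold change −0.25, 95% interval −0.60 to 0.09; limma adjusted p = 0.330). Ldhb, the heart-type subunit gene, had 4.64 to 19.5 in the Ly6C+ and 6.56 to 22.6 in the Ly6C- libraries (log2 fold change −0.05, 95% interval −1.25 to 1.16), and its direction turned without Ly6C+ replicate 3 or Ly6C- replicate 1 (0.51 and 0.41).

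Among the regulators, Pfkfb4 was lower in Ly6C+ cells. The Pfkfb enzymes make and break fructose 2,6-bisphosphate, the activator of phosphofructokinase. Pfkfb4 stood at 75.6, 76.7 and 79.6 in the Ly6C+ and 139, 133 and 151 in the Ly6C- libraries, a gap far wider than the spread within either group. It was 1.82-fold higher in Ly6C- CAFs (log2 fold change −0.85, SE 0.17; limma adjusted p = 0.00497). Pfkfb3, at 29.9, 34.6 and 23.2 against 64.0, 51.9 and 39.3, had a log2 fold change of −0.79 and missed the threshold (limma adjusted p = 0.0590), which it passed without Ly6C- replicate 3 (adjusted p = 0.0253) and not without any other library (0.0772 to 0.169). Pfkfb4 held 68.9% to 77.4% of the sum of both genes in Ly6C+ and 68.4% to 79.3% in Ly6C- libraries. The pyruvate dehydrogenase kinases Pdk1 to Pdk4 inhibit the pyruvate dehydrogenase complex, and Pdk1 is the classic HIF target among them. Pdk1 and Pdk4 were below the level for testing, with 12 and 15 reads per group for Pdk1 and 6 and 9 for Pdk4. Pdk2 (13.9 to 19.5 against 12.8 to 17.7) and Pdk3 (17.7 to 33.1 against 8.86 to 51.1) did not pass the test (limma adjusted p = 0.636 and 0.909). The Pdk3 values of the Ly6C- libraries, 8.86, 33.2 and 51.1, spread more than those of Ly6C+ cells, and the sign of its difference turned when Ly6C+ replicate 1 or Ly6C- replicates 2 or 3 were left out (0.04, 0.07 and 0.37).

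**Figure D2:**
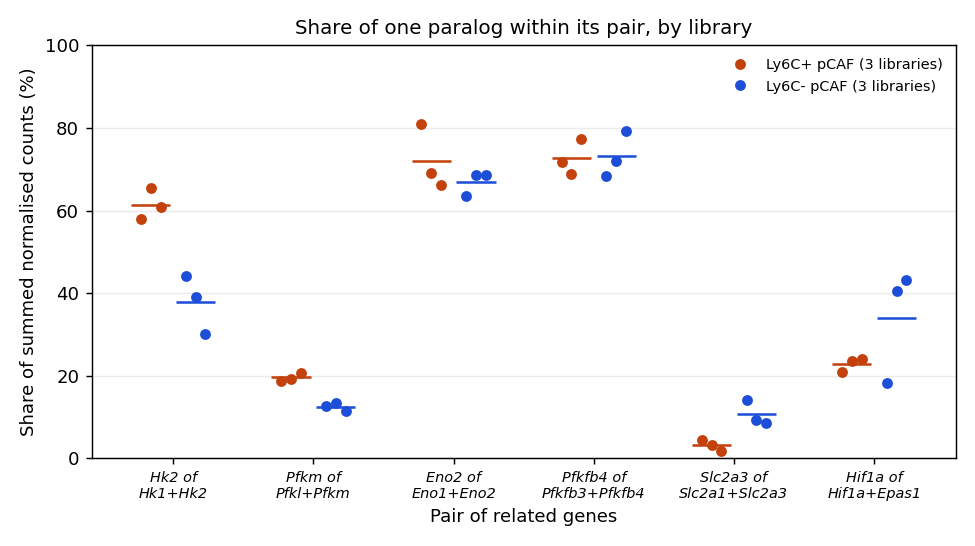
Share of 1 gene in the summed normalised counts of a pair of related genes, in percent, for each library. Points are libraries and short bars are group means. The groups do not overlap for Hk2, Pfkm and Slc2a3 and overlap for Eno2, Pfkfb4 and Hif1a.

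Leaving out single libraries ended several of these calls. The count of 7 fell to 3, all lower, without Ly6C+ replicate 2, or when the variance was modelled without its trend with the mean. Over all genes, the count of 1647 fell to 1251 and 1376 in these 2 settings. Pkm and Pfkfb4 passed in each of 20 alternatives. Hk1 did not pass without Ly6C+ replicate 2 (adjusted p = 0.0540). Pfkl did not pass without Ly6C+ replicate 3 (0.0576) or Ly6C- replicate 1 (0.0575), and Aldoa did not when Ly6C+ replicate 1 (0.0530), Ly6C+ replicate 2 (0.0997) or Ly6C- replicate 3 (0.0575) was omitted. Gpi1 kept its call without Ly6C+ replicate 1 only (0.0405), with 0.179 and 0.0825 without Ly6C+ replicates 2 and 3, and 0.0713, 0.101 and 0.0914 without Ly6C- replicates 1, 2 and 3. Hk2 was not called in 12 of 20 alternatives. It kept its call without Ly6C- replicate 1 (0.0315) but had 0.0928 to 0.128 without each of the other 5 libraries, 0.0568 in edgeR, 0.0667 in DESeq2, 0.106 after thinning and 0.109 with no trend. No glycolytic member was called higher in DESeq2, or in edgeR without a replicate block. When each library was scaled to its own total, the median of all genes moved to −0.19 and Hk2 had a log2 fold change of 0.40 (adjusted p = 0.173).

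The oxygen-sensing genes and the other HIF targets did not move as 1 block. Of 13 listed and tested genes, Egln3, Ankrd37, Car9, Car12 and Ddit4 were lower in Ly6C+ CAFs, Adm was higher, and 7 did not pass, against 7.66% and 9.41% of all tested genes. The median log2 fold change of the 13 was −0.65, and their values ran from −3.28 to 2.24, a wider range than the −1.30 to 0.59 of the 18 glycolytic genes. Of the 13, 6 had all Ly6C+ libraries below all Ly6C- libraries and 2 had them above, against 16.1% and 17.1% of all tested genes.

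**Figure D3:**
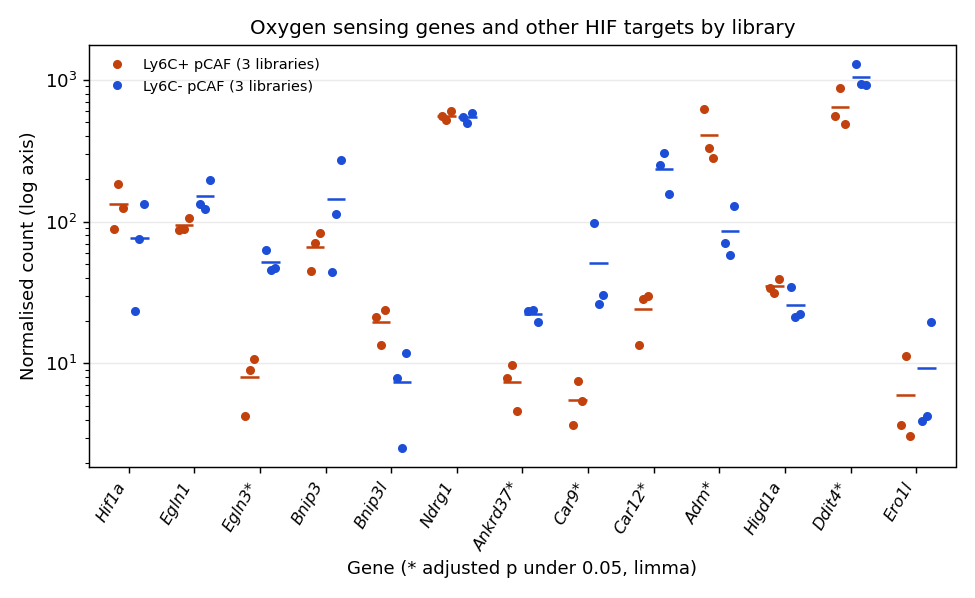
Normalised counts (log axis) of the 3 oxygen-sensing genes and the 10 other HIF targets. Each point is 1 library, short bars are group means, and a star marks an adjusted p under 0.05 in limma. The Ly6C- points of Egln3, Car9 and Car12 lie far above the Ly6C+ points, those of Adm lie below, and Hif1a and Bnip3 spread widely among the Ly6C- libraries.

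Egln3, an oxygen-sensing prolyl hydroxylase that HIF itself induces, had 4.27, 9.02 and 10.8 normalised counts in Ly6C+ and 63.0, 45.9 and 47.2 in the Ly6C- libraries, on 33 and 154 reads. Every Ly6C- library was above every Ly6C+ library, and the fold was 6.48 (log2 fold change −2.62, SE 0.34; limma adjusted p = 3.06e-04). Egln1, the main hydroxylase at normal oxygen, moved less, at 86.6, 89.4 and 106 against 133, 123 and 197. It did not pass the test (log2 fold change −0.65, SE 0.21; limma adjusted p = 0.0597), while it did in edgeR (adjusted p = 0.0439). Egln1 was not called in 15 of 20 alternatives, among them DESeq2 (adjusted p = 0.0516) and the omission of any 1 library (limma adjusted p = 0.0601 to 0.173). Hif1a, the alpha subunit controlled mainly at the protein level, was at 89.0, 184 and 124 in the Ly6C+ and 23.6, 74.9 and 132 in the Ly6C- libraries. Its groups overlapped and it did not pass the test (log2 fold change 1.02, 95% interval −0.08 to 2.13; limma adjusted p = 0.211). The ratio of means was 1.72, and without Ly6C- replicate 3 it was 2.69 and the gene passed (adjusted p = 0.0259). Without Ly6C- replicate 1 the ratio was 1.28 and the log2 fold change 0.35 (adjusted p = 0.532).

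The carbonic anhydrases, which turn carbon dioxide and water into bicarbonate and acid at the cell surface, had the largest differences of the 31 tested genes, though without Ly6C- replicate 1 Car9 (5.11-fold) fell below Egln3 (5.80-fold). Car9 (chromosome 4, 43506966 to 43513729, plus strand, mm10) stood at 3.66, 7.52 and 5.41 in the Ly6C+ and 97.4, 26.4 and 30.2 in the Ly6C- libraries. All Ly6C- values were higher, but Ly6C- replicate 1 was more than 3 times either of its fellows, and the 9.28-fold difference was 5.11-fold without it (limma adjusted p = 0.00185 with it and 0.00220 without). Car12 (chromosome 9, 66713686 to 66766845, plus strand, mm10) stood at 13.4, 28.6 and 30.1 in the Ly6C+ and 250.0, 303 and 157 in the Ly6C- libraries. It was 9.85-fold higher in Ly6C- CAFs, on 730 reads there and 99 in Ly6C+ cells (log2 fold change −3.28, SE 0.33; limma adjusted p = 4.90e-05). Between 8.07-fold and 11.5-fold remained with any 1 library left out.

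Ankrd37, a small ankyrin-repeat protein gene used as a hypoxia marker, was at 7.93, 9.77 and 4.64 in the Ly6C+ and 23.6, 23.8 and 19.7 in the Ly6C- libraries. It was 3.00-fold higher in the latter without overlap (log2 fold change −1.51, SE 0.34; limma adjusted p = 0.0104), on 32 and 67 reads. Its exons overlap those of Ufsp2 on the other strand, which had 113 to 224 normalised counts, and the handling of strands is not given in the sources used here. Ddit4, which encodes the mTORC1 inhibitor REDD1 and responds to hypoxia and to other stress, was at 553, 871 and 489 against 1281, 932 and 916. Its 1.64-fold difference sat at the threshold (log2 fold change −0.74, SE 0.23; limma adjusted p = 0.0497). The Ddit4 call ended in 12 of 20 alternatives, among them edgeR (0.0572) and the omission of replicate 1 or 3 of the Ly6C+ group (0.173 and 0.159) and of replicate 1 or 2 of the Ly6C- group (0.130 and 0.0967). Ankrd37 lost its call without Ly6C- replicate 2 (0.0522) and with all libraries thinned to 1176909 reads (0.0650).

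Adm was the HIF member called in the other direction. It encodes adrenomedullin, a secreted vasodilator peptide that HIF is known to induce but that inflammatory signals induce as well. Adm (chromosome 7, 110627661 to 110629820, plus strand, mm10) stood at 617, 331 and 281 in the Ly6C+ and 70.9, 57.8 and 129.8 in the Ly6C- libraries, without overlap. It was 4.75-fold higher in Ly6C+ CAFs (log2 fold change 2.24, SE 0.33; limma adjusted p = 7.94e-04), and 3.55-fold without Ly6C+ replicate 1, the library with granulocyte genes (adjusted p = 0.00501).

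The genes of mitochondrial removal pointed in different directions and neither passed. Bnip3 and Bnip3l encode related mitophagy receptors of the outer mitochondrial membrane. Bnip3 was at 44.5, 70.7 and 83.4 in the Ly6C+ and 44.3, 114 and 271 in the Ly6C- libraries (log2 fold change −0.79, SE 0.51; limma adjusted p = 0.356). Its ratio of 2.16 shrank to 1.20 without Ly6C- replicate 3 (adjusted p = 0.843), and it passed without Ly6C- replicate 1 (adjusted p = 0.0133). Bnip3 shared 63.9% of its 3′ end windows with other annotated genes and its values are uncertain. Bnip3l had 21.3, 13.5 and 24.0 in the Ly6C+ and 7.87, 2.55 and 11.8 in the Ly6C- libraries, higher in each Ly6C+ library, with a log2 fold change of 1.44 (SE 0.48; limma adjusted p = 0.0633). With Ly6C- replicate 3 left out, Bnip3l passed (adjusted p = 0.0172), and without any other library it did not (0.0558 to 0.196).

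The other 3 members gave no difference past the threshold. Ndrg1, a stress-response gene that hypoxia commonly induces, stood at 553, 520.2 and 605 in the Ly6C+ and 550.2, 498 and 583 in the Ly6C- libraries. Its log2 fold change was 0.04 with a 95% interval of −0.30 to 0.38, which leaves out a change as large as that of Pfkl or Pkm. Higd1a, an inner mitochondrial membrane protein gene, was at 31.6 to 39.4 and 21.3 to 34.4 (log2 fold change 0.44, 95% interval −0.13 to 1.02). Ero1l, an oxidase of disulfide formation in the endoplasmic reticulum, had 25 and 24 reads per group, and its direction turned without Ly6C- replicate 3 (0.27).

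Within the Ly6C- group, replicate 1 was the lowest library for Hif1a (23.6), Bnip3 (44.3) and Pdk3 (8.86) and the highest for Car9 (97.4), Ddit4 (1281), Pkm (3270) and Pfkl (216). Hypoxia genes thus did not rank the 3 Ly6C- libraries in 1 order.

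The start sites of the HIF targets with the clearest differences, and of Adm, are shown because they can be searched for the core motif of the hypoxia response element. Each sequence is the 250 bases before the start site, read in the direction of transcription, from RefSeq on GRCm38.p6, the build also called mm10. Capitals mark ACGTG or GCGTG, or their reverse complements CACGT and CACGC where the core lies on the other strand. One pair of cores in Ankrd37 overlaps and reads as a single run of capitals.
Car9, chr4:43506776-43507025, plus strand: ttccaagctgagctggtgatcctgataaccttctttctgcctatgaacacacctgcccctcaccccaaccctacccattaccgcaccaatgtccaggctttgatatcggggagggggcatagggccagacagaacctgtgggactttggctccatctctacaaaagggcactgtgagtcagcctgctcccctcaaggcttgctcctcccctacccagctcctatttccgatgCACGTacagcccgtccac
Car12, chr9:66713436-66713685, plus strand: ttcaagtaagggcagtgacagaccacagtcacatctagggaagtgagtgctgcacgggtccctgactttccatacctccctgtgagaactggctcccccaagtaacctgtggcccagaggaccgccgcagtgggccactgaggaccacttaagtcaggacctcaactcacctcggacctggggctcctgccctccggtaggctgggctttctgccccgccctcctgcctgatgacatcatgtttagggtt
Egln3, chr12:54203875-54204124, minus strand: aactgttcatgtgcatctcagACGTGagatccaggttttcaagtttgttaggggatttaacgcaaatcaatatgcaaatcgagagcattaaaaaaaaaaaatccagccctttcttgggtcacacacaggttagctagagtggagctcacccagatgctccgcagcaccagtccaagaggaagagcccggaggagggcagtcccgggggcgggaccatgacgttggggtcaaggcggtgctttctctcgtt
Ankrd37, chr8:45999851-46000100, minus strand: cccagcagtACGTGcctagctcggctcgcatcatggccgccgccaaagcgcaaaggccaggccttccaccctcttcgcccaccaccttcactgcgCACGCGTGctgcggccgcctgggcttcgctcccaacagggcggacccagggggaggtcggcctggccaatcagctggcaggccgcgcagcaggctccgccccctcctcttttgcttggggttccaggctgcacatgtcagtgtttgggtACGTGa
Adm, chr7:110627407-110627656, plus strand: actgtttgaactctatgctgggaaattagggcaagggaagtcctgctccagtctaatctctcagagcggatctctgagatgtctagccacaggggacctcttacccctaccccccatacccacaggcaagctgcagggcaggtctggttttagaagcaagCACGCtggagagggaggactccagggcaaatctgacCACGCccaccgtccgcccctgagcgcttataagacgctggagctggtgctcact

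The core stood 18 bases before the RefSeq start site of Car9 and 229 bases before that of Egln3, counted at its first base. Start sites differ between annotations. The GENCODE gene of Car9 starts at 43506966, inside the printed stretch, so the Car9 core lies after that start. The GENCODE gene of Ankrd37 reaches 46005707, beyond the far end of its stretch. Ankrd37 held 4 cores, the nearest 6 bases before the start, Adm held 2, and Car12 held none in these letters. In windows of 300 bases, 250 before and 50 after the start, 27 of the 31 members with an entry held a core in at least 1 window. By window, the share was 77.3% of 44 for the members, 61.3% of 12383 for genes of the deposited table and 43.8% of all 32851. The motif was thus common in all windows. Adm and Hk2, which were higher in Ly6C+ cells, held cores as did Egln3 and Car9, which were lower. A match is not a binding site, and a window without one says nothing of sites elsewhere.

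Genes beside the members in the same pathways were read from lists of 100 further genes, of which 72 were tested, 8 lower and 4 higher in Ly6C+ CAFs, with 7 in all without Ly6C+ replicate 1. The 12 of 72 lie near the 17.1% called over all tested genes. Without Ly6C+ replicate 1 the count over all 9646 tested genes fell too, from 1647 to 1121. Of the genes for uptake of glucose and export of lactate, 3 of 4 tested were called, all lower. Slc2a1, the glucose transporter GLUT1, stood at 267, 348 and 386 in the Ly6C+ and 533, 598 and 895 in the Ly6C- libraries, 2.02-fold higher in the latter (limma adjusted p = 0.00940, and 0.0511 without Ly6C+ replicate 1). Slc2a3, the high-affinity transporter GLUT3, stood at 12.2, 12.0 and 6.95 against 87.6, 61.3 and 83.9, a 7.46-fold difference (limma adjusted p = 5.27e-05). Its share of both transporter genes was 1.77% to 4.37% in Ly6C+ and 8.57% to 14.1% in Ly6C- libraries. Slc16a3, the lactate exporter MCT4, stood at 287, 285 and 312 against 813, 691 and 639.8, 2.43-fold higher in Ly6C- CAFs (limma adjusted p = 2.28e-04). Its chaperone gene Bsg did not pass, with a log2 fold change of −0.06. Of 5 further tested genes of sugar handling, Bpgm alone passed. It makes 2,3-bisphosphoglycerate from a glycolytic intermediate and was 3.70-fold higher in Ly6C- CAFs, at 94.5, 87.9 and 101 against 307, 336 and 406 (limma adjusted p = 2.97e-05).

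**Figure D4:**
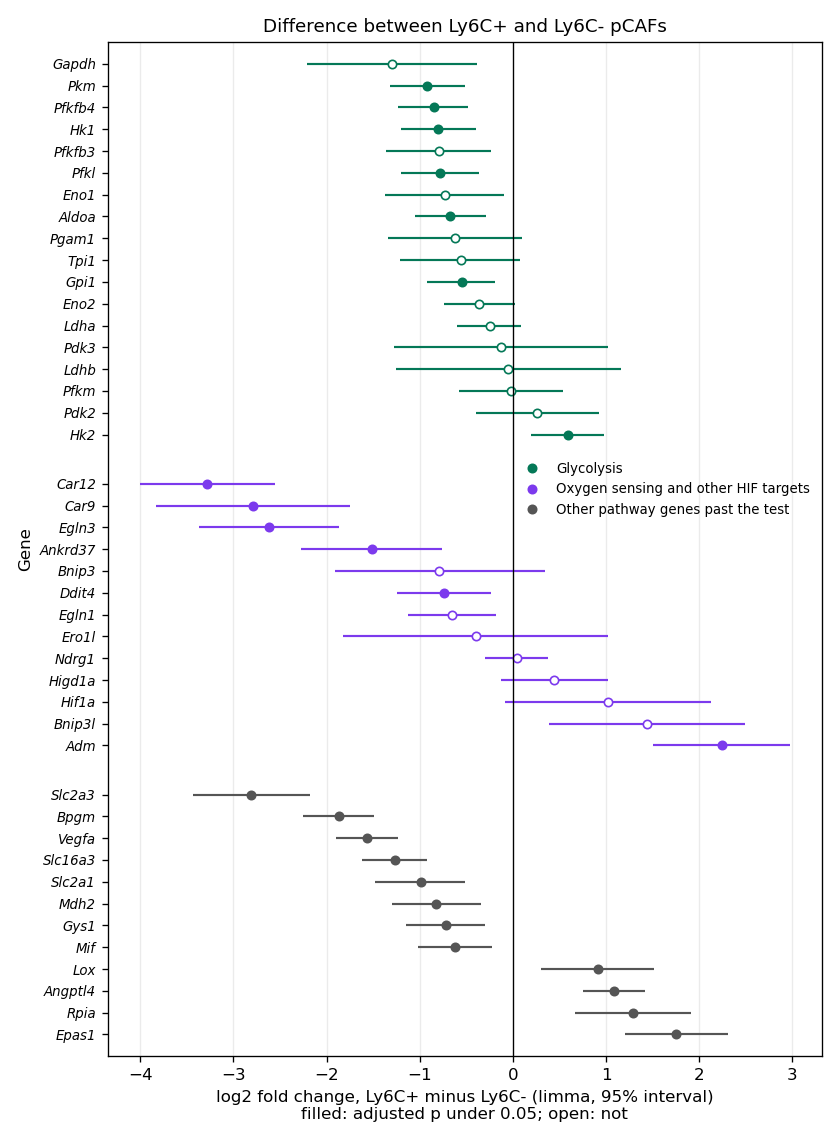
Log2 fold change, Ly6C+ minus Ly6C-, with 95% intervals from limma for the 31 tested members and the 12 other pathway genes that passed the test. Filled points have an adjusted p under 0.05. Glycolytic genes lie around a median of −0.59 with Hk2 on the other side, while the HIF group reaches from Car12 at −3.28 to Adm at 2.24.

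The other HIF alpha subunit gene was higher in Ly6C+ CAFs. Epas1, which encodes HIF-2 alpha, stood at 338, 595 and 393 in the Ly6C+ and 106, 109.7 and 174 in the Ly6C- libraries, 3.40-fold higher in Ly6C+ CAFs (log2 fold change 1.75, SE 0.25; limma adjusted p = 6.08e-04). Of 10 tested genes of the HIF machinery, Epas1 alone passed. Vhl, the E3 ligase subunit that binds hydroxylated HIF alpha, was at 23.2, 14.3 and 22.4 against 31.5, 37.4 and 36.7 and did not pass the test (log2 fold change −0.81; limma adjusted p = 0.0612). Egln2 and Arnt lay the other way without overlap and did not pass either (limma adjusted p = 0.113 and 0.16). Egln2 was at 158, 131 and 151 against 93.5, 112 and 114, and Arnt at 79.9, 76.7 and 71.9 against 64.0, 54.4 and 49.8. The share of Hif1a in the sum of Hif1a and Epas1 was 20.9% to 24.0% in Ly6C+ and 18.2%, 40.6% and 43.2% in Ly6C- libraries, which overlapped. Of 23 further HIF targets tested, 3 were lower and 2 higher in Ly6C+ cells, with a median log2 fold change of −0.20, against 7.66% and 9.41% of all tested genes. The angiogenic factor gene Vegfa was at 322, 363 and 379 against 1123, 1035 and 996, 2.96-fold higher in Ly6C- CAFs. The glycogen synthase gene Gys1 and the cytokine gene Mif were 1.67-fold and 1.56-fold higher there. Angptl4, a secreted lipoprotein lipase inhibitor, was at 1577, 1919 and 1709.9 against 779, 833 and 829.9, 2.13-fold higher in Ly6C+ CAFs (limma adjusted p = 5.18e-04). Lox, the collagen-crosslinking lysyl oxidase, was 1.79-fold higher there (limma adjusted p = 0.0441). When single libraries were left out, Lox kept its call without Ly6C- replicate 3 only (adjusted p = 0.0829 to 0.162 without any other), Gys1 lost its call without Ly6C+ replicates 1 or 2 or Ly6C- replicate 1 (0.0778 to 0.0838), and Mif kept its call without Ly6C- replicate 2 only (0.0767 to 0.115 without any other).

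In the branches around glycolysis, 2 of 30 tested genes passed in limma, where 17.1% of all genes did. None of 6 tested genes of the pyruvate dehydrogenase complex and pyruvate carrier passed in limma, edgeR or DESeq2. At an unadjusted p under 0.05 the count was 0 in limma and 1 in each of the others. Of 7 tested pentose phosphate genes, Rpia, the ribose 5-phosphate isomerase, was 2.55-fold higher in Ly6C+ CAFs (limma adjusted p = 0.00883). Of 17 tested genes of the citric acid cycle, Mdh2, the mitochondrial malate dehydrogenase, was 1.78-fold higher in Ly6C- CAFs (limma adjusted p = 0.0246, and 0.0594 to 0.109 without Ly6C+ replicates 1 or 2 or Ly6C- replicate 3). The medians of these 3 lists were −0.01, 0.08 and −0.19 on the log2 scale.

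Markers of other cell types also differed between the groups. The 12 epithelial genes, which 4T1 carcinoma cells can express, summed to 15.9 to 60.3 normalised counts in Ly6C+ and 121 to 394 in the Ly6C- libraries. Krt18 was the highest of them in Ly6C- replicates 1 and 2 (183 and 97.8), and Krt19 in replicate 3 (53.8). Of 5 tested epithelial genes, Krt19 and Krt14 were called lower in Ly6C+ CAFs (limma adjusted p = 1.74e-04 and 4.16e-05) and 3 did not pass, where 7.66% of all tested genes were called lower. The defining genes Epcam and Cdh1 were at or under 2.95 in every library, in cells that were sorted as lacking EpCAM. Car9 and the epithelial sum were both highest in Ly6C- replicate 1, as were Krt8, Krt18 and Krt19. Car12 was highest in Ly6C- replicate 2, as were Krt14 (25.6, 40.8 and 26.2 in Ly6C- replicates 1, 2 and 3) and Krt5 (3.94, 15.3 and 10.5). Krt8 (81.7, 34.0 and 6.56), Krt18 (183, 97.8 and 21.0) and Krt7 (33.5, 12.8 and 1.31) were highest in Ly6C- replicate 1. Krt19 (57.1, 24.7 and 53.8) was lowest in replicate 2, and Krt14 and Krt5 were lowest in replicate 1, where Car9 was highest. The keratins thus gave no single order, and 3 libraries are too few to link such ranks. Pericyte and smooth muscle genes summed to 447 to 634 and 1204 to 2197, and endothelial genes to 23.3 to 42.7 and 24.9 to 163, with Pecam1 at or under 4.25. Of 8 tested pericyte and smooth muscle genes, 6 were called lower in Ly6C+ CAFs (Cspg4, Des, Myh11, Mcam, Notch3 and Pdgfrb) and 1 higher. Of 4 tested endothelial genes, 3 were called lower and 1 higher, against 7.66% and 9.41% of all tested genes. Kdr, Esam and Egfl7 were 9.31-fold, 12.4-fold and 5.69-fold higher in Ly6C- CAFs, on 30, 6 and 12 reads in the Ly6C+ group. Single genes of these lists went the other way. Kcnj8 was called 3.92-fold higher in Ly6C+ CAFs, Abcc9 was at 15.2 to 51.0 against 5.91 to 14.5 and did not pass, and Tek was called higher at 13.5 to 25.6 against 0 to 2.62. Pdgfrb, at 202 to 424 against 599 to 1088, made up much of the pericyte sum and is on the fibroblast list as well. The lower pericyte sum in Ly6C+ CAFs did not rest on Pdgfrb alone. Cspg4 and Des, which are not on the fibroblast list, had larger folds than Pdgfrb. They were 13.7-fold and 16.8-fold higher in Ly6C- CAFs. Des spread widely among the Ly6C- libraries (684, 322 and 76.0), whereas Cspg4 did not (324, 378 and 400). Macrophage genes in the table summed to 148 to 373 and 56.4 to 191, with Ptprc at or under 4.88. Of 7 tested, Lyz2 alone was called, 12.5-fold higher in Ly6C+ CAFs (limma adjusted p = 0.0124). Lyz2 gave 264 of the 373 in Ly6C+ replicate 1, the library with granulocyte genes. The part of these cells in the glycolysis and hypoxia differences was not tested.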

How the data were processed

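Messenger RNA 3′ end libraries from 3 Ly6C+ and 3 Ly6C- sorted CAF samples were read from 1 deposited table. Its signal values are gene read counts that the authors divided by 1 size factor per library. Reads were processed with bcl2fastq, STAR 2.4.2a and HTSeq on mm10, per the submitters' processing notes. The size-factor tool, annotation, gene filter, and the handling of strands and of reads with several matches are not given in the sources used here. All values (100.0%, tolerance 0.001 reads) were whole multiples of the value of 1 read (0.6099 to 1.311), which gave back 1176909 to 2818269 reads per library and the read numbers printed.

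Differences were fitted to log2(value + 1) by limma 3.58.1 under R 4.3.3, letting the variance follow the mean, for genes with a mean of at least 5, with Benjamini-Hochberg adjustment over all 9646. The scripts were tested on simulated data. Alternatives were pseudocounts of 0.5 and 5, no filter, a mean of at least 20, other scalings, no trend, thinning to 1176909 reads, a replicate block, omission of each library, and edgeR 4.0.16 and DESeq2 1.42.0 on the recovered reads, where edgeR called 1721 genes. Two-sided tests were used throughout. The labels do not say whether libraries came from separate animals, so p-values measure the spread between these libraries, which may be technical.

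The members, gene lists, tests and alternatives were chosen with earlier results of these data known. All members are named. From each other pathway list up to 4 genes were named, those with the smallest p. Lox was named beyond that rule, after its values were seen. The shares of Slc2a3, Hif1a and Pfkfb4 in their pairs were also added then. Shared 3′ end sequence was counted over 50-base windows of the last 500 bases of GENCODE M21 transcripts, and gene coordinates are from the same annotation.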

Additional observations from a re-analysis of the deposited data

How the results depend on the processing

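Of the 13 members called, 6 (Pkm, Pfkfb4, Egln3, Car9, Car12 and Adm) were called in each of 20 alternatives, and none of the 13 changed direction in any. The count of glycolytic members called, 7, was 3 with no mean-variance trend and 3 to 6 with 1 library left out. The count of HIF members called, 6, was 10 in edgeR with a replicate block and 4 to 8 with 1 library left out, and that of other pathway genes, 12, was 7 to 12. Calls over all genes, 1647, moved as well. They were 1376 with no trend, 2113 in edgeR with a replicate block and 1121 to 1728 with 1 library left out. The difference in the share of Pfkm, 7 percentage points, was 3.78 after thinning. The cause was not tested. Uncalled members changed sign: Ndrg1 (0.04) was −0.05 with quantile normalization, −0.15 with library totals and −0.02 to 0.09 with 1 library left out. With 1 library left out, the log2 fold change ran from −0.16 to 0.12 for Pfkm, −0.42 to 0.51 for Ldhb, −0.83 to 0.37 for Pdk3 and −0.90 to 0.27 for Ero1l. With the replicate number as a block, limma called 2088 genes, 10 glycolytic members, 9 HIF members and 18 other pathway genes. Deviations of same-numbered libraries correlated at 0.129, 0.052 and 0.167, so the numbers were not taken to pair the samples, although every library correlated best with its own number, a hint from the data and not the design. Pgk1, Pdk1 and Pdk4 had at most 18 reads per group and were below the level for testing. The reason for their low counts was not tested.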
